A study of Mus musculus with 7 samples.

Results

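Leukocytes crawl, form contacts and engulf particles by assembling and dismantling actin filaments, and they do so with proteins that are largely restricted to the haematopoietic lineage. The 10 genes described here encode such proteins: Rac2, Dock2 and Arhgdib, which act in the signalling that starts actin assembly; Was and Hcls1, which promote branched filament growth through the Arp2/3 complex; Coro1a, Lcp1 and Lsp1, which bind or bundle filaments; and Tmsb4x and Tmsb10, which hold actin monomers in reserve and are also made by many other cell types. They were taken by gene name, and all 10 were found among the 32544 genes of the deposited table. In an atherosclerotic artery such genes can be read from plaque and adventitial leukocytes and from blood that remains in the vessel.

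The whole abdominal aorta was sampled from male Apoe-/- animals on 12 weeks of high-fat diet; without apolipoprotein E these mice build up plaques. Mice received ITA-LNP or Ctrl-LNP (control-LNP here; the titles write NP), in both cases 50 mg/kg into a vein 1 time a week; LNP usually stands for lipid nanoparticle, and ITA was read as itaconate from the series title. The groups had 3 ITA-LNP and 4 control-LNP libraries, and nothing in the labels ties each library to its own mouse, so the tests weigh the difference against a spread between libraries that may be technical. Libraries were made with a 3′ end kit, so transcript length does not enter the level, which is given as CPM, reads per 1000000 assigned reads. Depth was 5077073 to 7281721 reads per library, and a count of 0 allows up to 0.412 to 0.591 CPM (3 reads, counting error only).

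The libraries of the 2 groups differed in their marker genes far beyond the actin genes, and control-LNP 2 differed from the other control-LNP libraries. Summed pan-leukocyte markers (6 genes) were at 277 to 378 CPM in ITA-LNP and 3347 to 4203 CPM in control-LNP libraries, and all 6 were lower. In ITA-LNP libraries the summed markers were at 10.2 to 44.8 CPM for T cells, 4.81 to 25.1 CPM for B cells, 45.9 to 86.4 CPM for neutrophils, 87.4 to 169 CPM for platelets and 2550 to 4229 CPM for erythroid cells. In control-LNP libraries the same sums were 148 to 540, 548 to 1608, 930 to 26795, 4720 to 6146 and 12383 to 44743 CPM. Fibroblast markers (7998 to 9522 CPM in ITA-LNP, 53.7 to 129 CPM in control-LNP), smooth muscle actin genes (18330 to 22257 CPM in ITA-LNP, 515 to 799 CPM in control-LNP) and endothelial markers (606 to 756 CPM in ITA-LNP, 104 to 364 CPM in control-LNP) ran the opposite way, so the wall's defining markers were scarce in the control-LNP libraries although their label is abdominal aorta. Most of the endothelial sum in control-LNP libraries was Pecam1 (mean 204 of 211 CPM), which overlapped between the groups. Cdh5, Kdr and Egfl7 averaged 0.904, 5.43 and 0.632 CPM in control-LNP libraries. In ITA-LNP libraries they averaged 76.5, 148 and 240 CPM. Most of the smooth muscle actin sum in control-LNP libraries was Myl9 (mean 371 of 647 CPM). Its mean was 720 CPM in ITA-LNP libraries, the smallest change of that list. Monocyte and macrophage markers were divided. C1qa, C1qb and Mrc1 averaged 18.6, 62.0 and 60.3 CPM in ITA-LNP and 0.641, 2.27 and 2.43 CPM in control-LNP libraries. Csf1r, Ccr2 and Ly6c2 averaged 48.5, 5.62 and 0.729 CPM in ITA-LNP and 258, 170 and 147 CPM in control-LNP libraries. Cd68 and Adgre1 overlapped between the groups. No marker on these lists was at 0 reads in all libraries of a group. Control-LNP 2 was the library with 26795 CPM of neutrophil markers, it had 10846 detected genes against 14232 to 15333 in the other control-LNP libraries, and results that rest on it are given with and without it. In whole tissue, fewer cells of a type and less RNA per cell cannot be told apart, and the part of these marker shifts in the results below was not tested except where a ratio to them is given.

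The upstream sequences of 3 of the genes are shown because all 3 were lower with ITA-LNP while their windows differ in CpG content and in the letters they hold. Each is the RefSeq window (GRCm38.p6) from 250 bases before to 50 bases after the most upstream start that the table lists for the gene, 5′ to 3′ on the gene's strand. Capitals in Dock2 (chr11:34783856-34784155, minus strand) and Was (chrX:8090442-8090741, minus strand) mark GAGGAA or its reverse complement TTCCTC, the core letters bound by PU.1, an ETS factor of myeloid and B cells. In Coro1a (chr7:126704767-126705066, minus strand) they mark the GC-box letters GGGCGG or CCGCCC.
Dock2: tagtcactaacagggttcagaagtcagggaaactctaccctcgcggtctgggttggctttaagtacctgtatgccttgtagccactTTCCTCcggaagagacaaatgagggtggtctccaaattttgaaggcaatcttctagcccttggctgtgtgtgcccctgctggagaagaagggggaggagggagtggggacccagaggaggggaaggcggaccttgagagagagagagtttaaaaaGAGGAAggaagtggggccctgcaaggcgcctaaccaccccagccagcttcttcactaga
Was: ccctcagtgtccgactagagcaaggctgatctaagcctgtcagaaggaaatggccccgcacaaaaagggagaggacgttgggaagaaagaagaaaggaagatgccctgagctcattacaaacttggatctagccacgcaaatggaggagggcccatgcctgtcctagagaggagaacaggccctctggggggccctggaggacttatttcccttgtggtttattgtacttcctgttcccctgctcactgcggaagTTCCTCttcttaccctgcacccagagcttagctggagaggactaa
Coro1a: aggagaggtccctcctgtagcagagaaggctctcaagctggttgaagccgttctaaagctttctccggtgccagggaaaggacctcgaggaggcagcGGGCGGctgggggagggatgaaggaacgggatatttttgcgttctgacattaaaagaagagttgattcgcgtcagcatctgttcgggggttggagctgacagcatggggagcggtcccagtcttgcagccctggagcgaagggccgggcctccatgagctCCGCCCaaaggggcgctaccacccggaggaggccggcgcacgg

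Windows were found for 8 of the 10 genes. The letters GAGGAA occurred on either strand in 2 of the 8, Dock2 (2 matches) and Was (1 match), and in 28.3% of 27025 gene windows of the same length. GGGCGG occurred in 4 of the 8 (Coro1a, Lcp1, Tmsb4x and Tmsb10) and in 35.9% of all windows. TATAAA occurred in 2 of the 8 (Arhgdib and Hcls1) and in 14.2% of all windows, and the longer ETS strings GAGGAAGT and CCGGAAGT in 0 of the 8, beside 3.25% and 3.99% of all windows; each was searched on both strands, and GAGGAA lies within GAGGAAGT. The Coro1a and Lcp1 windows held 19 CpG dinucleotides each and the Tmsb4x window 20, whereas the Was and Dock2 windows held 5 each and Arhgdib 4, beside a median of 7 over all windows. The letters are a description of these windows only; they do not show binding.

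Of the 10 actin genes, 7 were lower with ITA-LNP and 0 were higher at an adjusted p under 0.05 (limma with Benjamini-Hochberg adjustment over 12636 tested genes), beside 5.15% of all tested genes lower and 10.3% higher. Their median log2 fold change was -3.37, that of all tested genes 0.15. In 8 of the 10 every ITA-LNP library lay below every control-LNP library, which held for 10.7% of all tested genes. All 10 passed the filter on low values. The number lower was 6 to 9 over all alternative settings, 7 to 9 when any 1 library was left out and 9 without control-LNP 2. Over all tested genes the number lower rose as well without control-LNP 2, to 2065 of 12893 from 651 of 12636. Centring each library on its median lowered every log2 fold change by the same amount, with the median of all genes at -0.98; the 7 of 10 count did not move, and among all called genes the share that was higher fell to 37.2%, against 66.7% without centring.

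**Figure D1:**
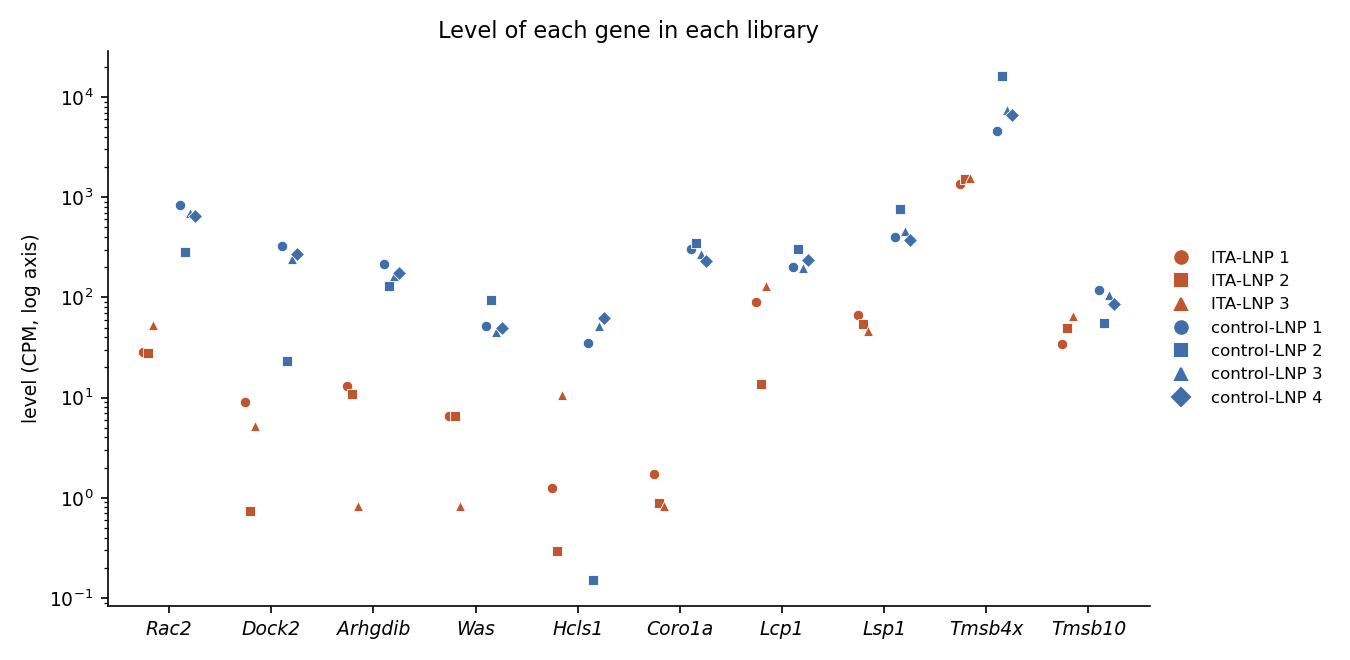
Level of the 10 genes in each library in CPM on a log axis, with the 3 ITA-LNP libraries left and the 4 control-LNP libraries right of each tick and a marker shape for each replicate. The groups are apart for 8 genes and overlap for Hcls1 and Tmsb10; control-LNP 2 is the low control-LNP library for Dock2, Hcls1 and Rac2 and the high one for Tmsb4x, Lsp1 and Was.

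Rac2 is the Rac GTPase of blood cells, which switches on actin assembly and the neutrophil oxidase. It was measured at 28.5, 28.1 and 52.6 CPM in ITA-LNP libraries 1 to 3 against 835, 286, 703 and 650 CPM in control-LNP libraries 1 to 4 (36.4 ± 14.0 and 619 ± 235 CPM, SD, n = 3 and 4). The groups did not overlap, and control-LNP 2 was the lowest control-LNP library. This gave a log2 fold change of -4.005 ± 0.47 (SE; adjusted p = 0.000577).

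Dock2 is the exchange factor that loads Rac with GTP downstream of chemokine receptors in lymphocytes and neutrophils. Its levels were 9.10, 0.737 and 5.22 CPM in ITA-LNP and 327, 23.0, 243 and 269 CPM in control-LNP libraries. Control-LNP 2 held 8.24% of the mean of the other 3 control-LNP libraries, yet still lay above all ITA-LNP libraries. The log2 fold change was -4.98 ± 1.05 (adjusted p = 0.00986), and with limma-voom on the recovered reads the gene was not called (-5.32, adjusted p = 0.210).

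Arhgdib was at 13.0, 10.9 and 0.824 CPM in ITA-LNP libraries and at 214, 129, 163 and 174 CPM in control-LNP libraries. ITA-LNP 3 held 6 reads of it, against 83 and 74 in ITA-LNP 1 and 2, and the groups were apart (-4.65 ± 0.79, adjusted p = 0.00326). The gene lies on chromosome 6 (136923655 to 136941899, mm10), where Pde6h overlaps it on the other strand; whether the counting used strand is not given in the sources used here. Pde6h was at 1.03 to 6.04 CPM in ITA-LNP and 0.897 to 25.8 CPM in control-LNP libraries. Pde6h was above Arhgdib in ITA-LNP 3 (6.04 against 0.824 CPM) and below it in the other 6 libraries, and reads of the 2 genes could have been split between them.

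Was encodes the Wiskott-Aldrich protein, which activates the Arp2/3 complex in haematopoietic cells. It was at 6.59, 6.48 and 0.824 CPM in ITA-LNP libraries, on 42, 44 and 6 reads, and at 51.4, 94.8, 44.8 and 49.5 CPM in control-LNP libraries. The groups did not overlap, and control-LNP 2 was the highest library. The log2 fold change was -3.64 ± 0.81 (adjusted p = 0.0129).

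Hcls1, the haematopoietic relative of cortactin, was the least abundant of the 10 in 4 of the 7 libraries. It was at 1.25, 0.295 and 10.7 CPM in ITA-LNP libraries and at 34.9, 0.150, 51.7 and 62.0 CPM in control-LNP libraries. The single low control-LNP value, 1 read in control-LNP 2, made the groups overlap, and the difference, -2.57 ± 1.52 on the log2 scale, missed the threshold (adjusted p = 0.306; 95% interval -5.98 to 0.85). Without control-LNP 2 it was -3.92 and passed (adjusted p = 0.0114).

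Coro1a had the largest difference of the 10. Its product, coronin 1A, binds filaments and helps to remove Arp2/3 branches, and loss of it depletes naive T cells. It was at 1.73, 0.884 and 0.824 CPM in ITA-LNP libraries, on 11, 6 and 6 reads, and at 304, 347, 269 and 232 CPM in control-LNP libraries. The lowest control-LNP library was 135 times the highest ITA-LNP library, and the log2 fold change was -7.08 ± 0.58 (adjusted p = 8.89e-05). The 3′ end of the gene on chromosome 7 (126699773 to 126707787, minus strand) overlaps that of Bola2 on the plus strand. Bola2 was at 65.9 to 86.2 CPM in ITA-LNP libraries, far above Coro1a there, and at 38.9 to 365 CPM in control-LNP libraries.

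Lcp1 encodes L-plastin, the leukocyte member of the actin-bundling plastins. It was at 89.4, 13.7 and 131 CPM in ITA-LNP libraries, against 199, 302, 196 and 234 CPM in control-LNP libraries. The groups were apart, but only by 1.497 times between the nearest libraries, and ITA-LNP 2 lay 9.57 times below ITA-LNP 3. At -2.04 ± 0.71 on the log2 scale it missed the threshold (adjusted p = 0.0886; 95% interval -3.62 to -0.46), and it was -1.07 without ITA-LNP 2 (adjusted p = 0.162). Summed over the 8 monocyte and macrophage markers, ITA-LNP libraries 1 to 3 were at 325, 258 and 229 CPM. The control-LNP libraries were at 324 to 1055 CPM. Single markers did not share 1 order among the ITA-LNP libraries. There, Csf1r, Cd68, Adgre1, C1qa and Ly6c2 were lowest in ITA-LNP 2, whereas C1qb, Mrc1 and Ccr2 were highest in it. Of these 8 markers, 3 were higher (C1qa, C1qb and Mrc1) and 3 lower (Csf1r, Ccr2 and Ly6c2). Their part in the Lcp1 levels was not tested.

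Lsp1, an actin-binding protein of leukocytes and endothelium, was at 66.8, 54.1 and 46.7 CPM in ITA-LNP libraries, against 401, 767, 463 and 376 CPM in control-LNP libraries. Its ITA-LNP libraries lay close together, within 1.43 times, and below all control-LNP libraries (-3.10 ± 0.38, adjusted p = 0.000743).

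Tmsb4x, which encodes thymosin β4, was by far the most abundant of the 10 in every library. It was at 1361, 1508 and 1555 CPM in ITA-LNP libraries, and 4615, 16237, 7458 and 6600 CPM in control-LNP libraries (1474 ± 101.3 and 8728 ± 5146 CPM, SD, n = 3 and 4). It ranked 56 to 69 among all genes in ITA-LNP and 2 to 15 in control-LNP libraries, and the high value was that of control-LNP 2. The groups did not overlap (-2.40 ± 0.35, adjusted p = 0.00160), and the call was lost with median centring, at a larger fold change (-3.53, adjusted p = 0.130).

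Tmsb10, the closely related thymosin β10, was at 34.4, 49.8 and 64.7 CPM in ITA-LNP libraries, against 120, 55.5, 107 and 86.3 CPM in control-LNP libraries. Control-LNP 2 lay below ITA-LNP 3, and the difference of -0.87 ± 0.52 on the log2 scale missed the threshold (adjusted p = 0.308; 95% interval -2.02 to 0.29). Without control-LNP 2 it was -1.09 and passed (adjusted p = 0.0375). The ratio of Tmsb4x to Tmsb10 was 39.6, 30.3 and 24.0 in ITA-LNP libraries and 38.5, 293, 70.0 and 76.5 in control-LNP libraries. The 2 ranges overlap through control-LNP 1, and the ratio was highest in control-LNP 2. Reads that match more than 1 gene may have been split between thymosin genes and their copies, since their handling is not given.

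**Figure D2:**
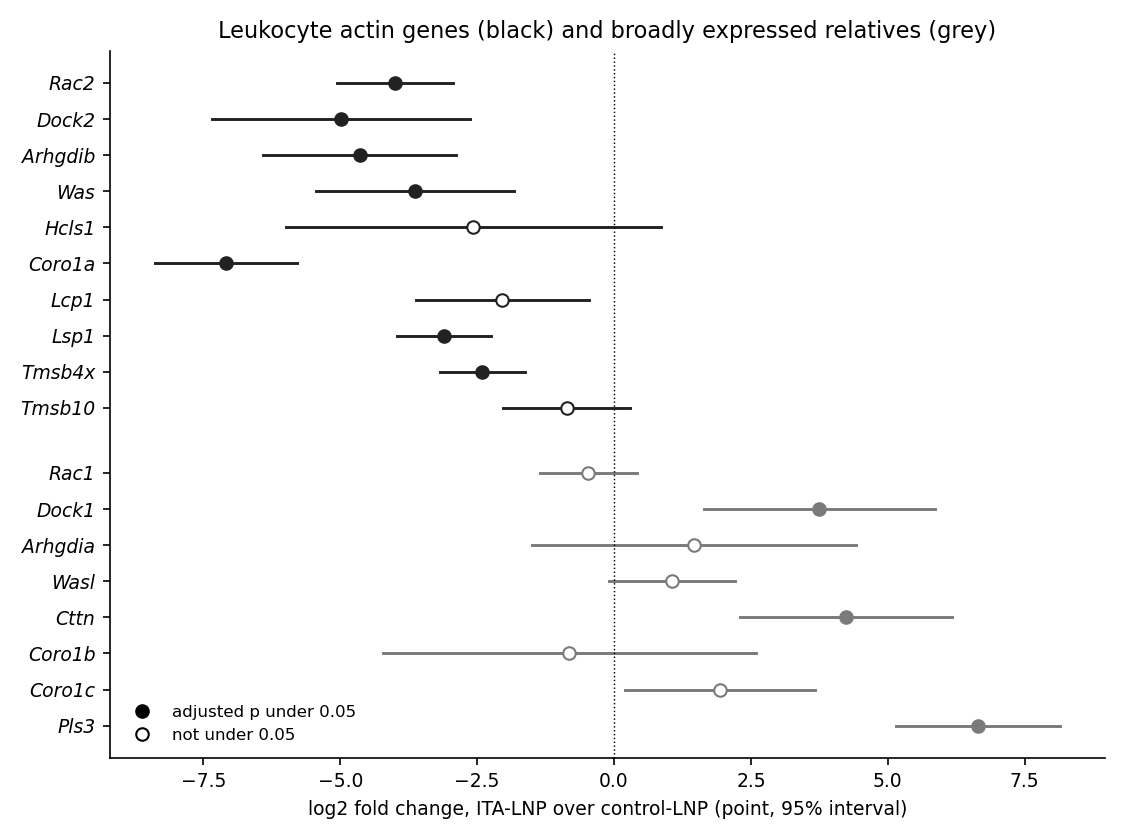
Log2 fold change of ITA-LNP over control-LNP with its 95% interval for the 10 leukocyte actin genes (black) and 8 broadly expressed relatives (grey); filled points have an adjusted p under 0.05. All 10 black points lie left of 0, 7 of them filled, and the 3 filled grey points, Dock1, Cttn and Pls3, lie right of it.

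The genes were next set against the summed pan-leukocyte markers within each library, as a description with no test. Those markers differed unequally between the groups. The control-LNP mean was 59.8 times the ITA-LNP mean for Cd52, 38.0 for Cd37 and 10.7 for Ptprc. It was 5.99 times for Cd48, 4.68 for Laptm5 and 3.48 for Cd53. The place of a gene on this scale therefore depends on the markers summed. The 8 genes other than the thymosins summed to 72.7, 30.5 and 89.9 CPM per 100 CPM of pan-leukocyte markers in ITA-LNP libraries and to 57.2, 58.2, 50.7 and 52.9 in control-LNP libraries. The ITA-LNP values thus spanned the control-LNP values, while the sum itself was 216, 115 and 249 CPM in ITA-LNP against 1949 to 2366 CPM in control-LNP libraries. On this scale Rac2 (7.46 to 19.0 in ITA-LNP, 8.54 to 20.2 in control-LNP), Lsp1 (14.3 to 22.4 in ITA-LNP, 9.69 to 22.9 in control-LNP) and Was (0.298 to 2.21 in ITA-LNP, 1.07 to 2.83 in control-LNP) overlapped between the groups, as did Arhgdib, Hcls1, Dock2, Lcp1 and Tmsb4x. For Lsp1, Dock2 and Tmsb4x control-LNP 2 alone made the overlap. Without it Lsp1 was at 14.3 to 22.4 in ITA-LNP and 9.69 to 11.0 in control-LNP libraries, Dock2 at 0.195 to 3.05 in ITA-LNP and 5.77 to 7.90 in control-LNP libraries, and Tmsb4x at 399 to 561.6 in ITA-LNP and 112 to 177 in control-LNP libraries.

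With all libraries, 1 of the 10 genes lay below every control-LNP library per pan-leukocyte CPM in all ITA-LNP libraries, as did 1.96% of all tested genes, and 1 lay above, as did 58.9%. Without control-LNP 2, 2 lay below (5.26% of all tested genes) and 3 above (61.4%), so a gene above on this scale is like most tested genes. Coro1a was at 0.579, 0.234 and 0.298 in ITA-LNP libraries and at 6.002 to 10.4 in control-LNP libraries. Tmsb10 was at 11.5, 13.2 and 23.4 in ITA-LNP and at 1.66 to 2.90 in control-LNP libraries. Lcp1 was above all control-LNP libraries in ITA-LNP 1 and 3 (30.0 and 47.4, against 4.67 to 9.02) and below them in ITA-LNP 2 (3.63).

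**Figure D3:**
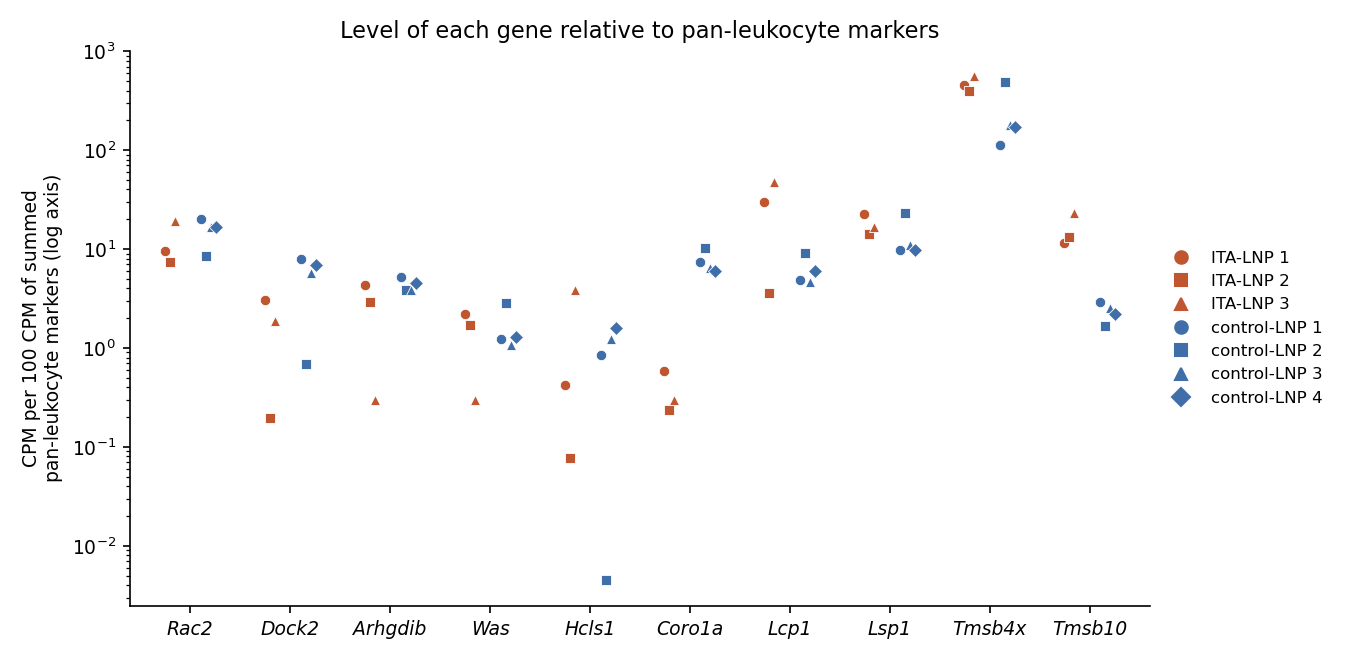
CPM of each gene per 100 CPM of 6 summed pan-leukocyte markers, log axis, ITA-LNP libraries left and control-LNP libraries right of each tick. Coro1a lies lower and Tmsb10 higher in all 3 ITA-LNP libraries than in any control-LNP library, and the groups overlap for the other 8 genes, for Lsp1, Dock2 and Tmsb4x through control-LNP 2 alone.

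The make-up of the group also differed between libraries. Lcp1 and Lsp1 together took most of the summed level of the 8 genes in each ITA-LNP library, with Lcp1 at 41.3%, 11.9% and 52.7% and Lsp1 at 30.9%, 46.9% and 18.8%. In control-LNP libraries 1, 3 and 4 Rac2 led with 31.7% to 35.3%, and Dock2 and Coro1a took 11.4% to 13.8% and 11.3% to 12.8%. In control-LNP 2 Lsp1 led with 39.4%, Coro1a took 17.8% and Dock2 1.18%. Neutrophil markers summed to 26795 CPM there and to 10253 CPM in control-LNP 3, against 930 and 1058 CPM in control-LNP 1 and 4. Control-LNP 3 had Rac2 at 33.0% and Dock2 at 11.4%. The part of the neutrophil markers in the make-up was not tested.

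**Figure D4:**
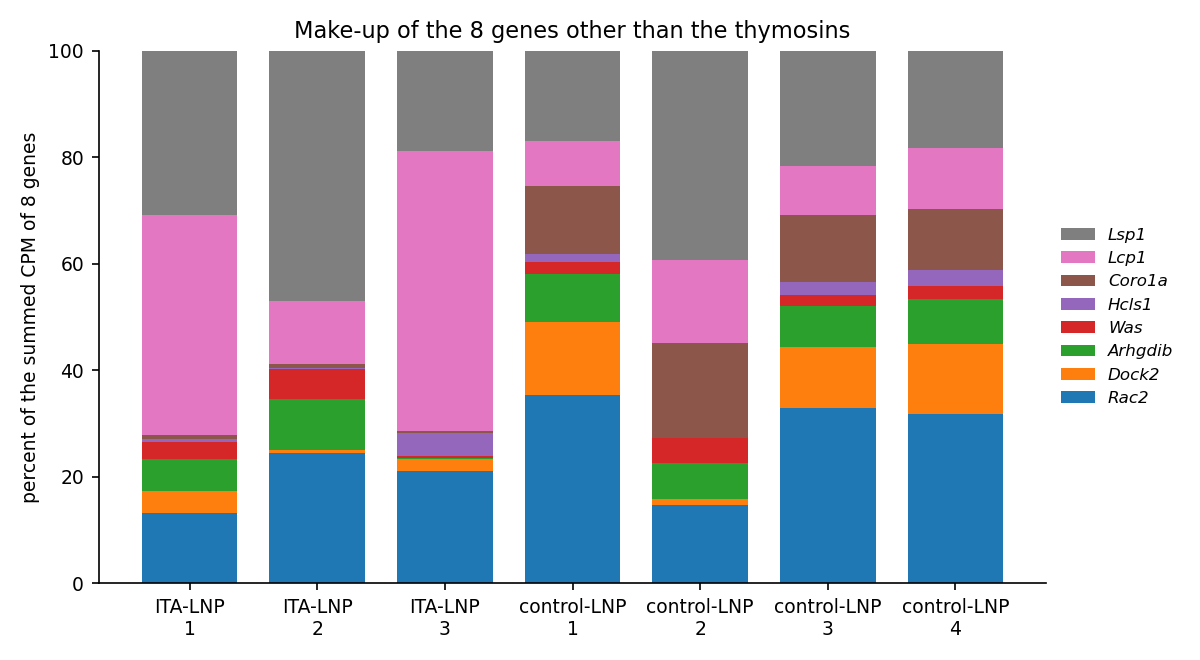
Share of each gene, in percent, in the summed CPM of the 8 genes other than the thymosins, 1 bar per library, 3 ITA-LNP bars left and 4 control-LNP bars right. Coro1a takes under 1% in each ITA-LNP bar and 11.3% to 17.8% in the control-LNP bars; control-LNP 2 lacks most of the Dock2 share seen in the other control-LNP bars.

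Several of the 10 have relatives that serve the same step in most cell types. Of 8 such relatives, 3 were higher with ITA-LNP and 0 lower, beside 10.3% of all tested genes higher and 5.15% lower. Their median log2 fold change was 1.70 with all libraries. It lay between Arhgdia (1.46) and Coro1c (1.94), which were at 0.048 and 1.27 without control-LNP 2. The median without that library was not computed. Pls3, the plastin of non-blood cells, was at 392, 345 and 390 CPM in ITA-LNP libraries, against 3.74, 4.49, 0.962 and 2.95 CPM in control-LNP libraries (6.64 ± 0.67, adjusted p = 0.000249). Cttn, cortactin itself, was at 66.0 to 102 CPM in ITA-LNP and 0.449 to 6.70 CPM in control-LNP libraries (4.24 ± 0.86, adjusted p = 0.00845), and Dock1, which activates Rac1 in many tissues, at 16.5 to 64.5 CPM in ITA-LNP and 0.150 to 4.14 CPM in control-LNP libraries (3.75 ± 0.94, adjusted p = 0.0234). Dock1 lost its call without ITA-LNP 1 or 2 or control-LNP 3 or 4 (adjusted p up to 0.0944), with median centring and with a replicate block. Cttn lost its call with the replicate block only (adjusted p = 0.0633).

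The other 5 relatives did not pass. Coro1c was at 83.4 to 167 CPM in ITA-LNP and 6.43 to 51.8 CPM in control-LNP libraries (1.94 ± 0.77, adjusted p = 0.131; 1.27 and adjusted p = 0.0212 without control-LNP 2), and Wasl, the widely expressed counterpart of Was, at 88.6 to 105 CPM in ITA-LNP and 30.0 to 71.0 CPM in control-LNP libraries (1.06 ± 0.51, adjusted p = 0.204; -0.0716 with median centring). Rac1 was at 533, 642 and 775 CPM in ITA-LNP and 1320, 405, 1036 and 1122 CPM in control-LNP libraries (-0.47 ± 0.39, adjusted p = 0.494), and it was lower without control-LNP 2 (-0.84, adjusted p = 0.0167). Arhgdia and Coro1b overlapped between the groups, with 95% intervals of -1.50 to 4.42 and -4.22 to 2.59. Coro1b turned to 0.59 without ITA-LNP 2.

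Within a library, the log2 ratio of each leukocyte gene to its relative was lower in every ITA-LNP than in every control-LNP library for 8 pairs, Coro1a being set against both Coro1b and Coro1c. The share over other gene pairs was not computed. By themselves, 8 of the 10 genes lay below and 5 of the 8 relatives above in all ITA-LNP libraries. A ratio of such genes is apart by construction, so the count of pairs is only a description. For Rac2 over Rac1, with at least 182 reads of each gene in every library, it was -4.18, -4.46 and -3.86 in ITA-LNP and -0.66, -0.50, -0.56 and -0.79 in control-LNP libraries, with the widely expressed gene ahead throughout. For Lcp1 over Pls3 it was -2.12, -4.56 and -1.57 in ITA-LNP and 5.40 to 6.65 in control-LNP libraries, so the order of the 2 plastins was opposite in the groups. Dock2 over Dock1 behaved likewise, at -4.53 to -1.49 in ITA-LNP and 4.39 to 6.48 in control-LNP libraries. Control-LNP 2 gave ratios of Arhgdib to Arhgdia and of Coro1a to Coro1b far above those of the other control-LNP libraries (6.35 and 7.91, against 1.09 to 1.30 and 3.01 to 3.24), with Arhgdia and Coro1b at 4 and 3 reads there.

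**Figure D5:**
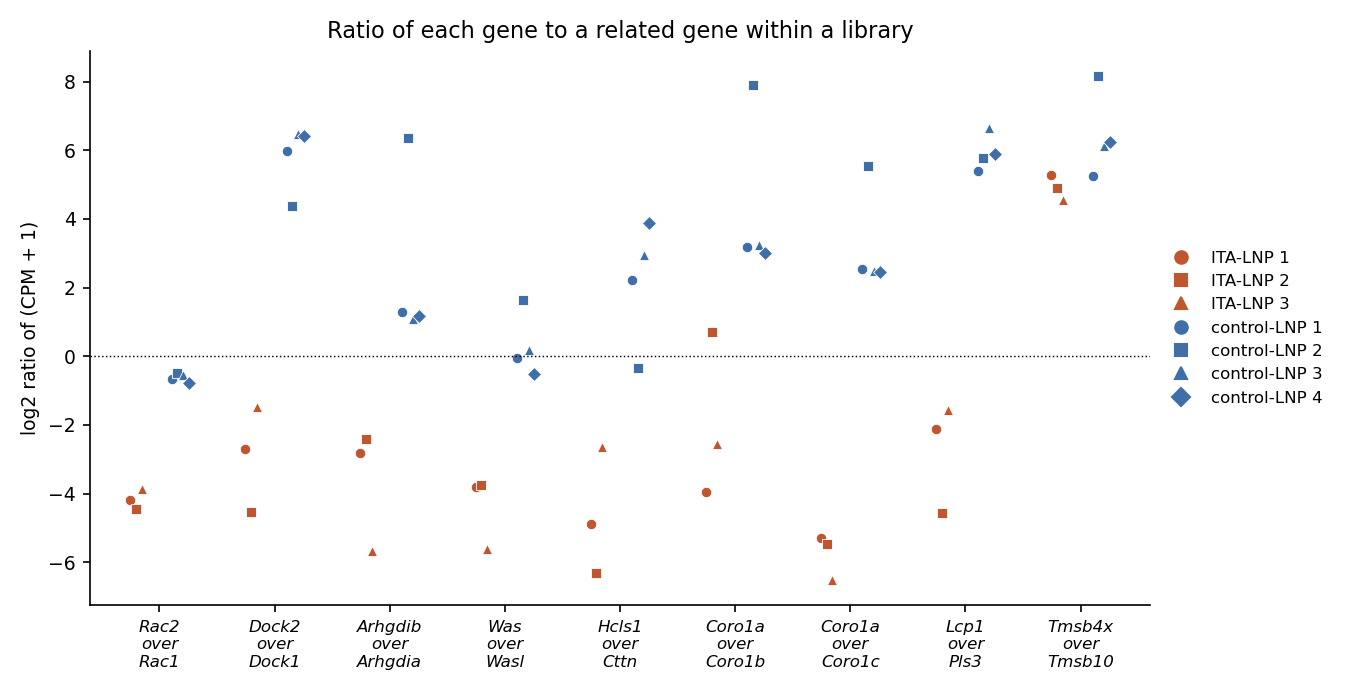
Log2 ratio of (CPM + 1) of a leukocyte gene to a related gene within each library, ITA-LNP libraries left and control-LNP libraries right of each tick. The ITA-LNP libraries lie below the control-LNP libraries in the first 8 pairs, and the ranges overlap for Tmsb4x over Tmsb10.

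A wider list of 26 other leukocyte actin and adhesion regulators had 15 members lower, 0 higher and a median log2 fold change of -2.64. The first by p were Gmfg, which dissolves Arp2/3 branches (-6.29 ± 0.58), the integrin chain Itgal (-6.64 ± 0.65), Fermt3, which activates integrins in blood cells (-6.48 ± 0.69), and Cytip, a scaffold of leukocyte adhesion (-5.29 ± 0.67). The count was 10 with limma-voom, 22 with sample weights and 20 without control-LNP 2. Over all tested genes 498, 2243 and 2065 were lower with these settings, against 651 in the main comparison. Of 24 genes of the general actin machinery, 5 were lower and 1 higher, with a median of -0.43. Over all tested genes 5.15% were lower and 10.3% higher. Ezr, a membrane-actin linker, was at 51.4 to 70.1 CPM in ITA-LNP and 279 to 495 CPM in control-LNP libraries (-2.64 ± 0.37), Cfl1, the filament-severing cofilin of most cells, had a log2 fold change of -1.24 ± 0.25, and Actb, cytoplasmic β-actin, one of -1.04 ± 0.26. Arpc5, an Arp2/3 subunit, was lower as well (-1.38 ± 0.38). The higher gene was Cfl2, the muscle cofilin, at 157 to 198 CPM in ITA-LNP and 1.495 to 35.3 CPM in control-LNP libraries (3.35 ± 0.94). Leaving out single libraries gave 2 to 6 lower and 0 or 1 higher members of this list, with 0 higher, so Cfl2 not called, without ITA-LNP 1, 2 or 3 or control-LNP 1 or 3. All 10 smooth muscle actin genes were higher, with a median of 5.98, led by p by Acta2, smooth muscle actin (6.79 ± 0.27), the actin-binding Tagln (7.30 ± 0.35), the myosin heavy chain Myh11 (7.68 ± 0.50) and the calponin Cnn1 (6.59 ± 0.46).

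The genes whose profile over the 7 libraries was nearest to each member were found by the root mean square distance between centred log2(CPM + 1) values, among 12006 other tested genes. For Coro1a it was the platelet gene Gp9, at a distance of 0.26, and for Rac2 the platelet gene Gp1bb, at 0.37. The nearest to Lsp1 was Srgn, a granule proteoglycan of blood cells, at 0.27. For Was, Arhgdib, Hcls1 and Dock2 they were Gpcpd1 (0.30), Exph5 (0.38), Slc25a53 (0.35) and Treml2 (0.58), for Lcp1 Brwd3 (0.15), for Tmsb4x Psg23 (0.15) and for Tmsb10 the ribosomal protein gene Rpl7 (0.22). Among the members themselves the nearest pair was Lsp1 and Tmsb4x (0.46) and the farthest Coro1a and Tmsb10 (3.13).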

How the data were processed

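The authors deposited 1 table of log10 values for 7 libraries. With 10 as the base and 1 subtracted, each column sums to 1000000, so the deposited values were read as log10(CPM + 1). Per the submitters' processing notes the build is mm10. Which aligner, counter and annotation were used, and how strand and molecular identifiers were handled, is not given in the sources used here. Within a library 100% of values were whole multiples of 1 step (tolerance 0.01), which gave the reads.

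Tests used log2(CPM + 1), with 1 CPM as the pseudocount, which understates the change of low genes, and genes with a mean of at least 1 were tested (12636). ITA-LNP was compared with control-LNP by limma-trend (limma 3.58.1, R 4.3.3), with Benjamini-Hochberg adjustment over all tested genes and a threshold of 0.05, and errors of fold changes are SE. The procedure was run on simulated counts with the same dispersion for all genes and no library set apart. That run does not show how the procedure does with a library such as control-LNP 2. The alternatives were 2 filters, 2 pseudocounts, 2 normalizations, limma-voom on the recovered reads (1768 genes called), sample weights, a replicate block and leaving out each library.

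The members and lists were chosen with earlier results of these data known, so their counts are descriptions. Named are all members and relatives, of the other actin lists the 4 genes with the smallest p and up to 2 called against the majority, and each member's nearest profile. Marker lists are summed, and single markers are named where they differed from others of their list. Arhgap45 was matched through its older symbol Hmha1 after a first fit had been seen. Coordinates are from GENCODE M21 and promoter windows from RefSeq. Python 3.11.15, pandas 2.3.3 and matplotlib 3.10.9 were used.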

Additional observations from a re-analysis of the deposited data

Results flagged for a closer look

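In 2 of the 10 genes a single control-LNP library lay far from the other 3 on the log2(CPM + 1) scale, in both cases control-LNP 2 as the lowest. For Dock2 the gap to the next library was 0.887 of the range of the group, with 23.0 CPM against 243 to 327 CPM. For Hcls1 it was 0.859, with 0.150 CPM against 34.9 to 62.0 CPM. Both exceed the 95% critical value of Dixon's test for 4 samples, which chance passes in about 1 of 20 groups. All 10 genes and the 8 relatives were tested. Of the relatives, Arhgdia, Coro1b and Coro1c exceeded it as well, at 0.967, 0.949 and 0.891, again with control-LNP 2 lowest. The gap is thus not particular to the 10 genes, and its share over all genes was not computed. Over all tested genes control-LNP 2 correlated with the other control-LNP libraries at 0.607 to 0.625, and those among themselves at 0.933 to 0.949. The same library had the fewest detected genes of the 7, 10846, and the highest neutrophil marker sum; control-LNP 3, next on that sum, had 243 CPM of Dock2 and 51.7 CPM of Hcls1. The part of the marker sum or the detected genes in these values was not tested.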

How the results depend on the processing

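Log2 fold changes of all 10 members stayed negative under all 16 alternatives, and Coro1a, Lsp1, Rac2 and Arhgdib were called under each of them. Leaving out single libraries moved the log2 fold change of Coro1a between -7.27 and -6.98, of Dock2 between -5.86 and -4.25 and of Lcp1 between -2.66 and -1.07. Lcp1 was called with quantile normalization (-2.24, adjusted p = 0.0314) and with sample weights (-1.85, adjusted p = 0.00807); Hcls1 was called with these settings and with median centring. Over all genes, median centring gave 741 higher and 1249 lower, sample weights 2100 and 2243, the replicate block 738 and 322, and quantile normalization 1401 lower, against 1306 higher and 651 lower in the main comparison. Leaving out single libraries gave 984 to 1988 higher and 401 to 2065 lower, the most without control-LNP 2. Wasl turned to -0.0716 with median centring, and Coro1b ranged from -2.01 to 0.59 when single libraries were left out. Of the relatives, 1 was lower with sample weights, 0 to 1 were lower with single libraries left out, and 1 was higher with the replicate block. Of the general actin machinery, 0 were higher and 3 lower without the filter, 0 higher with a pseudocount of 0.25 CPM, 1 lower with median centring, 2 higher with quantile normalization, and 0 higher and 2 lower with the block; single libraries left out gave 0 to 1 higher and 2 to 6 lower. The replicate block left 6 of the 10 members lower (Was -3.71, adjusted p = 0.0682). Deviations of same-numbered libraries correlated at -0.0173 to 0.0053, and those of the other pairs at -0.0322 to 0.0257. So few pairs cannot exclude shared handling, and the labels give these libraries only a number in common. Leaving control-LNP 2 out of the ratios to pan-leukocyte markers, chosen after seeing the data, put 5 of the 10 members apart, against 2 with all libraries. Over all tested genes 5.26% lay below and 61.4% above without it, and 1.96% and 58.9% with all libraries. Being apart on this scale is thus not particular to the members. The causes were not tested. At 6 to 11 reads of Coro1a per ITA-LNP library, its level there is known only roughly.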
